A study of Mus musculus with 8 samples.

Results

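The loci of 10 transcription factors that specify the first lineages of the mouse embryo were examined in maps of open chromatin from the reprogramming of fibroblasts. The genes were Gata4, Gata6, Sox17 and Foxa2 (endoderm), Eomes, Mixl1 and Gsc (mesendoderm) and Cdx2, Elf5 and Tfap2c (trophoblast). They were chosen by name, as 10 of the 21938 protein-coding genes annotated on the mouse genome build mm10. No measured value was used as a criterion, but earlier results of these data were known when the genes were chosen. For each gene, every peak that overlapped the gene body or the 50 kb to either side of it by at least 1 bp was collected. The windows spanned 102.122 kb (Gsc) to 172.771 kb (Gata4) and held 67 of the 101701 open regions of the genome.

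Chromatin was profiled by ATAC-seq, in which a transposase cuts and tags accessible DNA, so that stretches rich in reads (peaks) mark open chromatin. There were 8 libraries in 4 groups, with 2 libraries per group. The first group was mouse embryonic fibroblasts (MEFs) of the strain C57BL/6J-OG2, which carries an Oct4-GFP reporter transgene, taken from E13.5 embryos as stated under methods. In the OSKM groups, the same kind of MEFs had been transduced with pMXs retroviruses for OCT4, SOX2, KLF4 and c-MYC (OSKM) plus a FLAG control, and were collected on day 5 and day 10 in ESC medium with vitamin C. The labels name no sorting of these cells, so an infected group may hold cells at different stages. The fourth group was embryonic stem cells (ESCs), labelled C57Bl6J for replicate 1 and C57BL/6J-OG2 for replicate 2. The labels describe ESCs on feeder fibroblasts in serum with LIF, whereas the methods give gelatin and 2i/L medium for ESCs. All 4 groups are labelled wildtype, with no gene knocked out.

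The authors deposited 1 peak list for both libraries of a group, so no spread between replicates could be computed and no difference below was tested. The lists held 35226 (day 10) to 56514 peaks (MEFs), with 36219 on day 5 and 48486 in ESCs, and they give no read numbers, so the depth behind them is unknown. The labelled cell types were checked by peaks over the start sites of marker genes. Of 6 fibroblast markers, 6 had one in MEFs, 4 on day 5, 2 on day 10 and 1 in ESCs, and of 6 ESC markers 2, 1, 1 and 5 did. Among 3 blood markers only Cd68 had one, in ESCs, and among 3 endothelial markers only Kdr, in all 4 lists. In bulk samples, a site open in few cells and a weakly open site cannot be told apart.

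GATA4, GATA6, SOX17 and FOXA2 drive definitive and extraembryonic endoderm. EOMES, MIXL1 and GSC act in the primitive streak, where mesoderm and endoderm arise. CDX2, ELF5 and TFAP2C maintain the trophoblast, the outer layer that forms the placenta. Such genes are silent or low in ESCs and in most fibroblasts, and many developmental regulators with CpG-rich promoters are well-known targets of Polycomb repression in ESCs.

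The sequences on which the account below turns come from 4 loci. Foxa2 and Elf5 each held a region open on day 5 and day 10 and listed in no peak of MEFs or ESCs, Gsc held the region of highest fold enrichment in ESCs and a region that was already open on day 5, and Cdx2 held a region open in all 4 lists. Each line gives 200 bases around the midpoint of the widest single peak of the region, on the plus strand of GRCm38 (mm10). These bases can lie off the centre of the region and reach past the narrower peaks of other lists. Capitals mark motif letters matched on either strand. The motifs searched in all windows were TGACTCA for AP-1 with its sister form TGAGTCA, ATGCAAAT for the octamer, CATTGT for SOX factors, CCACACCC for KLF factors with the sister form CCCCACCC, AGATAA for GATA factors with the sister form TGATAA, the forkhead letters TGTTTAC for FOXA factors, AGGTGTGA for T-box factors with the sister form AGGTGTTA, GCCNNNGGC for TFAP2 factors and CATTCCA for TEAD factors with the sister form CATTCCT.
Foxa2 upstream region, open on day 5 and day 10, chr2:148079789-148079988: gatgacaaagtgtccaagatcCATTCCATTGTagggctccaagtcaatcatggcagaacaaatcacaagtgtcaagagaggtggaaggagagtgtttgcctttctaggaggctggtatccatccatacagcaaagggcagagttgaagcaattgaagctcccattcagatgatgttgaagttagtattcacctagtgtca
Elf5 upstream region, open on day 5 and day 10, chr2:103406880-103407079: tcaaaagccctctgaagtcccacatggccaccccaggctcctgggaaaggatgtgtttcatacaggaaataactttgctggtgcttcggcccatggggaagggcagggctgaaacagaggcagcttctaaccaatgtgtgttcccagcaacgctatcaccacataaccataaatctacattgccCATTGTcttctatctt
Gsc downstream region, open on day 5, on day 10 and in ESCs, chr12:104433548-104433747: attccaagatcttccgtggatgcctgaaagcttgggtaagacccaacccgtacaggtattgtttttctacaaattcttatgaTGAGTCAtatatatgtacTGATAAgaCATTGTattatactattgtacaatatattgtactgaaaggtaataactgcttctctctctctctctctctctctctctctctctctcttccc
Gsc downstream region, open in ESCs, chr12:104453216-104453415: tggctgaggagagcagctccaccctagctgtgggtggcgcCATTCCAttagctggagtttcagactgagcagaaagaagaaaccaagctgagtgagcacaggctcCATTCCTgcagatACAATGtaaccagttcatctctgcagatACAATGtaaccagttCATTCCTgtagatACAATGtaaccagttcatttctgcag
Cdx2 downstream region, open in all 4 lists, chr5:147299571-147299770: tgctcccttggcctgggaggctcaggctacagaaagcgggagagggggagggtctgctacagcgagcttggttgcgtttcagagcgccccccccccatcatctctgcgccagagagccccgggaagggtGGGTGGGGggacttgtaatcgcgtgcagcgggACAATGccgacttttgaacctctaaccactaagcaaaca

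Upstream promoter bases are shown for the genes whose start sites were open in different sets of lists. The bases come from the promoter table of RefSeq on GRCm38.p6, which matched 5 of the 10 genes (Foxa2, Eomes, Gsc, Cdx2 and Elf5). They run 5′ to 3′ along the direction of transcription up to the start site, with any annotated UTR base left out.
Eomes promoter, chr9:118477939-118478188, plus strand: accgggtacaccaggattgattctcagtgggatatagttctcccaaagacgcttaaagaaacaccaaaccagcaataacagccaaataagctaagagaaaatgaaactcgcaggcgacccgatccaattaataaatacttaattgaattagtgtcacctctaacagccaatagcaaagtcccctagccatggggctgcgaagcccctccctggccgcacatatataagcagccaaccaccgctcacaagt
Gsc promoter, chr12:104473331-104473486, minus strand: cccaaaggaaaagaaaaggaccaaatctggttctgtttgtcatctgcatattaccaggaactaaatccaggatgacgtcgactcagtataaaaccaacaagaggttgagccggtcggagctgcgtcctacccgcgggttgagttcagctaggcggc
Cdx2 promoter, chr5:147307271-147307499, minus strand: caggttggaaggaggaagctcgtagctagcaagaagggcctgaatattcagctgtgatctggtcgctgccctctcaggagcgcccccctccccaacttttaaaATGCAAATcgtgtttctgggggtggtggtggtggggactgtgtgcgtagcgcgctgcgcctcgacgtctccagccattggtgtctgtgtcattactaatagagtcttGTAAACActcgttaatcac

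The 10 windows together held 35 peaks in MEFs, 21 on day 5, 22 on day 10 and 44 in ESCs. Per Mb of window, this was 29.5, 17.7, 18.6 and 37.1 peaks, beside 33.8, 22.4, 24.0 and 31.2 in the windows of all protein-coding genes. The lineage loci thus held fewer peaks per Mb than genes at large in MEFs and at both days, and more in ESCs. At 6 of the 10 genes, MEFs and ESCs both had more peaks than either day, as they did at 31.6% of all genes. In MEFs the count depended on the lower-scoring peaks of the longer list. With the 35226 highest-scoring peaks of every list, MEFs kept 15 peaks in the windows, below the 20 on day 5, the 22 on day 10 and the 31 in ESCs. These counts have no density around all genes beside them.

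**Figure D1:**
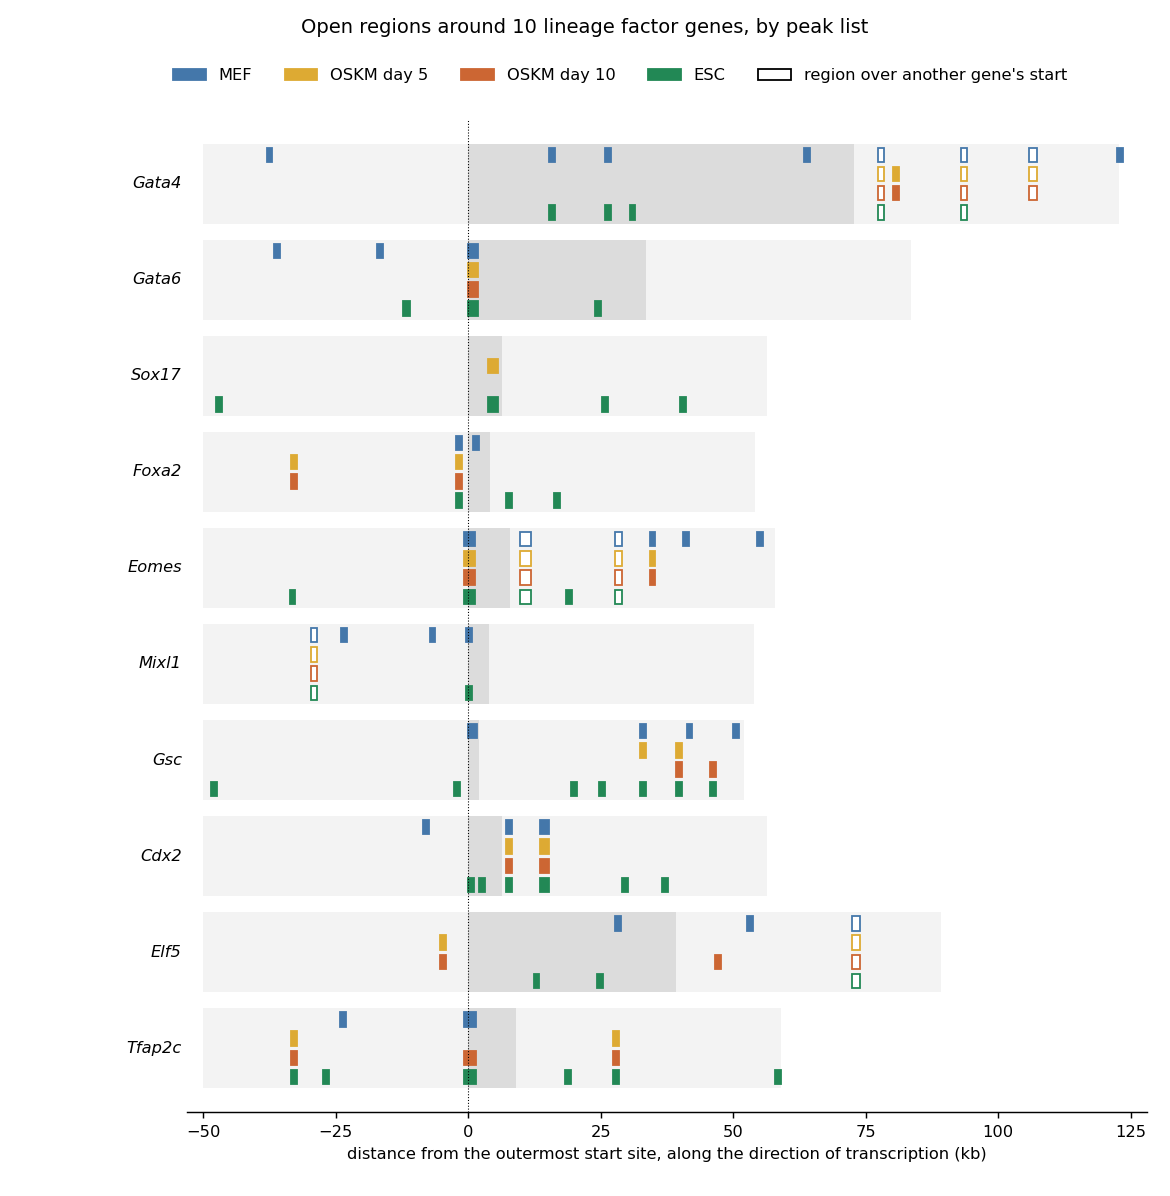
Open regions (boxes) around each gene, placed by distance in kb from the outermost start site along the direction of transcription, with 1 row per peak list. Boxes narrower than 1.1 kb are drawn 1.1 kb wide, dark grey marks the gene body, pale grey the 50 kb flanks, and open boxes are regions over the start site of another gene. All genes but Mixl1 show boxes in the ESC row that no MEF box accompanies, with the most at Gsc (6), Tfap2c (5), Sox17 (4) and Cdx2 (4).

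Of the 10 genes, 5 had more peaks in ESCs than in MEFs (35.6% of all genes did), 3 had fewer (42.2% of all genes) and 2 had as many. The first 5 were Sox17, Foxa2, Gsc, Cdx2 and Tfap2c, and the 3 with fewer were Gata4, Eomes and Mixl1. By germ layer, the 4 endoderm genes held 13 peaks in MEFs and 15 in ESCs, the 3 mesendoderm genes 14 and 14, and the 3 trophoblast genes 8 and 15. On day 5 and day 10, the counts were 8 and 7 for endoderm, 7 and 7 for mesendoderm and 6 and 8 for trophoblast.

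**Figure D2:**
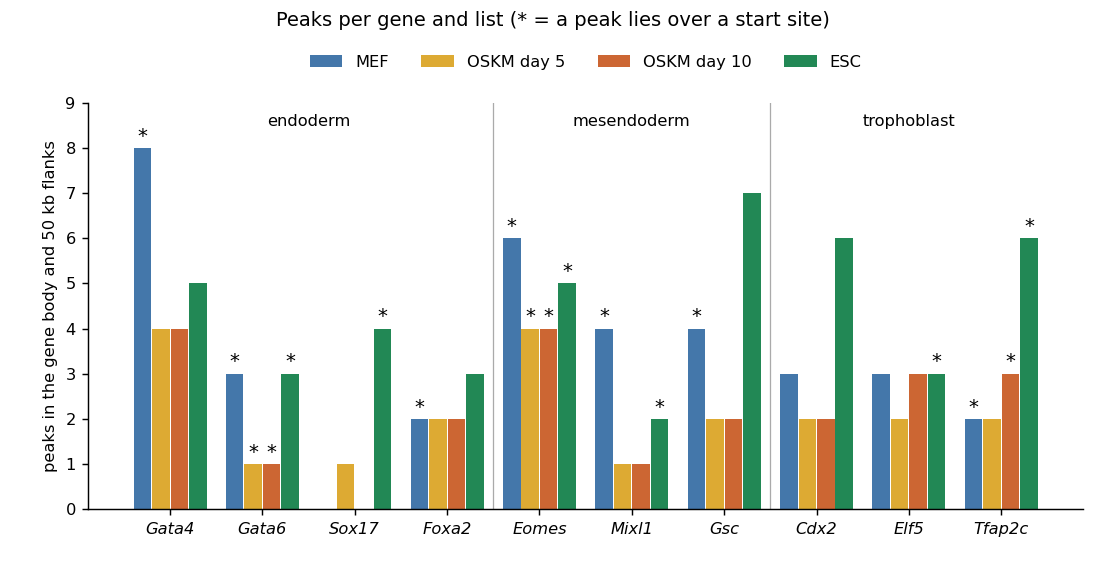
Number of peaks in the gene body and the 50 kb to each side, for each of the 10 genes (x axis) and each list (colour). An asterisk marks a peak over a start site; ESC bars are the tallest for Sox17, Foxa2, Gsc, Cdx2 and Tfap2c, and MEF bars for Gata4, Eomes and Mixl1.

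Gata4, a zinc-finger factor of endoderm and heart, had the most MEF peaks of the 10 genes. Its window, the longest of the 10 at 172.771 kb, held 8 peaks in MEFs, 4 on day 5, 4 on day 10 and 5 in ESCs. Some of the MEF and ESC peaks lay in neighbouring genes. The outermost Gata4 start site, at chr14:63271692, lay under no peak of any list. A MEF peak of fold 3.01 covered 2 internal start sites (63245248 and 63245271), and an ESC peak of 74 bp in the same merged region stopped 560 bp short of them, 60 bp away from the MEF peak. Inside the gene, an intronic region at chr14:63255520-63256367 was open in MEFs (fold 3.50) and ESCs (3.78) and on neither day. All of the day 5 and day 10 peaks in this window lay in the neighbouring genes Neil2 and Fdft1, including a region in a Neil2 exon (chr14:63190693-63191153) that was open on both days only, with folds of 2.96 and 2.73. At the far edge of the window, a Fdft1 intron held a MEF-specific region of fold 4.52 (chr14:63148460-63149047).

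Gata6, the partner of Gata4 in primitive endoderm, was open at a start site in all 4 lists. Its window held 3 peaks in MEFs, 1 on day 5, 1 on day 10 and 3 in ESCs. The start-site peak had a fold of 2.91 in MEFs, 3.01 on day 5, 2.89 on day 10 and 3.16 in ESCs, and it was the only Gata6 peak at either day. It covered 3 annotated start sites in MEFs and 2 in each other list and began 32 bp (MEFs) to 288 bp (both days) inside the outermost one. It also overlapped the start of the noncoding gene 1010001N08Rik, so the 2 genes' openings cannot be told apart.

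Sox17, an HMG-box factor needed for definitive endoderm, was the gene with no MEF peak in its window. It had 0 peaks in MEFs, 1 on day 5, 0 on day 10 and 4 in ESCs. The ESC peak at chr1:4491787-4493667 (fold 3.20, −log10 q of 7.27) covered an internal start site, and the day 5 peak lay within it but 562 bp downstream of that start, with a fold of 2.57 and a −log10 q of 1.73. No transcript annotated as protein-coding began at the covered start. The other 3 ESC peaks were 21.7 kb and 36.6 kb downstream and 46.5 kb upstream of the nearest start site, and none had a counterpart in another list.

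Foxa2, a forkhead pioneer factor of endoderm, was open upstream of its outermost start site in every list. The nearest upstream peak lay 1336 bp from it in MEFs, 1448 bp on day 5, 1705 bp on day 10 and 1539 bp in ESCs, with folds from 2.56 in MEFs to 2.82 on day 10. The window held 2 peaks in MEFs, 2 on day 5, 2 on day 10 and 3 in ESCs. A start-site peak was present only in MEFs (chr2:148045179-148045757), and it was the weakest of the MEF peaks at these loci, with a fold of 2.10 and a −log10 q of 1.26. It lay over an internal start that, like that of Sox17, belonged to no protein-coding transcript. Foxa2 also held the widest of the transient regions, those open on day 5 or day 10 but without a MEF or ESC peak. This was chr2:148079342-148080436, 32.4 kb upstream, with a fold of 3.92 on day 5 and 3.58 on day 10. In its central 200 bases, printed above, a TEAD motif and a SOX motif overlapped.

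Eomes, a T-box factor of streak and trophoblast, was open over a start site in all 4 lists. There were 6 peaks in MEFs, 4 on day 5, 4 on day 10 and 5 in ESCs. The start-site peak covered all 3 annotated start sites in MEFs, on day 10 and in ESCs and only the innermost of them on day 5, where it was 558 bp wide beside 2070 bp, 1499 bp and 1381 bp. The promoter bases printed above were under the MEF and day 10 peaks and not under the day 5 and ESC peaks. Folds were 2.71, 3.26, 3.07 and 3.12 in MEFs, on day 5, on day 10 and in ESCs. A region at chr9:118512747-118513215 in an intron of the neighbouring Golga4 was open in MEFs (2.99), on day 5 (3.80) and on day 10 (3.11) and not in ESCs. It was the only region of this pattern that did not cover a start site of another gene.

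Mixl1, a paired-type homeobox factor of the streak, was open at its single start site in MEFs (fold 2.52) and ESCs (3.40) and on neither day. Of all genes, 2.07% showed this start-site pattern. The window held 4 peaks in MEFs, 1 on day 5, 1 on day 10 and 2 in ESCs. The only peak at either day was at the start of the neighbouring Acbd3, which was open in all 4 lists with folds from 4.16 to 4.94. The MEF peak reached only 2 bp past the Mixl1 start and had a −log10 q of 1.70.

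Gsc, a homeobox gene of the organizer, had the most ESC peaks of the 10. Its window held 4 peaks in MEFs, 2 on day 5, 2 on day 10 and 7 in ESCs. The start site was open in MEFs alone (chr12:104471672-104473353, fold 3.16), and that peak also covered the start of the neighbouring Gm10000. The nearest ESC peak began 1564 bp upstream of the Gsc start. Downstream of the gene stood 5 of the 7 regions with an ESC peak, their near edges between 19.4 kb and 45.9 kb from the start site. The region at 19.4 kb (chr12:104452744-104453888) had a fold of 4.70 and a −log10 q of 15.4, the highest ESC fold at these loci, and no peak in the other lists. Its central 200 bases held 3 SOX and 3 TEAD motifs, which lay partly in short near-repeated stretches, as the printed sequence shows. The region at 39.3 kb (chr12:104433102-104433989) was open on day 5 (fold 3.27), day 10 (3.25) and in ESCs (4.06). The region at 45.9 kb joined a day 10 peak, which forms its near edge, and an ESC peak 18 bp beyond it that shared no base with it. A further region, at 32.7 kb, was open in MEFs (2.72), on day 5 (2.70) and in ESCs (3.64).

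Cdx2, the caudal-type factor that marks trophoblast, had no peak over its start site in any list. The window held 3 peaks in MEFs, 2 on day 5, 2 on day 10 and 6 in ESCs. The ESC peak closest to the promoter (chr5:147306451-147307127, fold 2.73) ended 143 bp inside the gene, and the next ESC peak was in an intron, 2.31 kb from the start. Both were absent from the other lists. Immediately 3′ of the gene, 2 intergenic regions were open in all 4 lists and were not at the start site of any gene. In the region at 7.20 kb (chr5:147299123-147300072) the folds were 2.86 in MEFs, 2.98 on day 5, 3.57 on day 10 and 4.03 in ESCs. In the region at 13.6 kb (chr5:147292084-147293709) they were 3.47, 3.12, 3.35 and 3.58. An ESC peak of fold 4.23 lay 36.9 kb away in an exon of Pdx1, itself an endodermal homeobox gene. The Cdx2 promoter bases printed above hold an octamer, the motif of OCT4 and its partners, and a FOXA motif, which 1.74% and 3.65% of the 32851 promoters in the table hold.

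Elf5, an ETS factor that keeps trophoblast stem cells, had 3 peaks in MEFs, 2 on day 5, 3 on day 10 and 3 in ESCs. An ESC peak of fold 3.07 covered the start site at chr2:103424828, which is internal, and its outermost start, at chr2:103411688, was under no peak. Upstream of the latter, at 4.23 kb, a transient region (chr2:103406505-103407455) had a fold of 3.85 on day 5 and 3.37 on day 10. It was the transient region closest to a start site of its gene. A second transient region in the window, in an intron of the neighbouring Cat, was open on day 10 only, with a fold of 3.17. The peak at the Cat start was the one region open in all 4 lists.

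Tfap2c, an AP-2 factor of trophoblast and germ cells, had 2 peaks in MEFs, 2 on day 5, 3 on day 10 and 6 in ESCs. A start site was open in MEFs (fold 2.64), on day 10 (2.44) and in ESCs (3.45) and not on day 5. Of its 6 annotated start sites, the MEF peak covered 4 and missed the outermost, which the day 10 and ESC peaks covered with 4 others. A pair of ESC-specific regions flanked the gene and were open at both days. One was 32.3 kb upstream (chr2:172516333-172517302), with folds of 3.72 on day 5, 2.70 on day 10 and 3.69 in ESCs. The other was 24.8 kb downstream (chr2:172576946-172577987), with folds of 3.76, 3.26 and 4.63. Tfap2c was thus the only one of the 10 genes with more than 1 ESC-specific region open on both days.

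The second comparison asked whether the start sites of lineage factors were open in each cell state. A start site counted as covered when a peak overlapped the first base of any annotated transcript. In MEFs 7 of the 10 genes had a covered start site, beside 60.0% of all protein-coding genes, and in ESCs 6 had one, beside 55.8%. On day 5 this held for 2 of the 10 (Gata6 and Eomes), beside 52.1%, and on day 10 for 3 (Gata6, Eomes and Tfap2c), beside 56.0%. The genes at large thus changed little between the lists while the lineage genes had fewer covered starts on both days than in MEFs and ESCs. The MEF value depended on weak peaks. With lists of equal length, the MEF count was 2 (Gata6 and Gsc), beside 55.6% of all genes, and the counts on day 5, on day 10 and in ESCs stayed at 2, 3 and 6, beside 51.7%, 56.0% and 50.5%. Counting only the outermost start of each gene gave 3 in MEFs, 0 on day 5, 2 on day 10 and 3 in ESCs. These last counts have no share of all genes beside them, so whether they are low cannot be said. The number of genes is small and the difference was not tested.

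Every start-site peak of these genes was of lower fold than the median start-site peak of its list. This held for 7 of 7 in MEFs, 2 of 2 on day 5, 3 of 3 on day 10 and 6 of 6 in ESCs. Their median folds were 2.71, 3.13, 2.89 and 3.18, beside 3.82, 3.91, 3.63 and 3.80 for all peaks over a start site of a protein-coding gene. By −log10 q, 7 of 7, 2 of 2, 3 of 3 and 4 of 6 lay below the median of such peaks in their list, and the ESC peaks at Sox17 (7.27) and Tfap2c (6.42) lay above the ESC median of 5.93. The fold is the authors' value, taken here as that of the whole replicate 1 peak relative to background, which no source states.

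**Figure D3:**
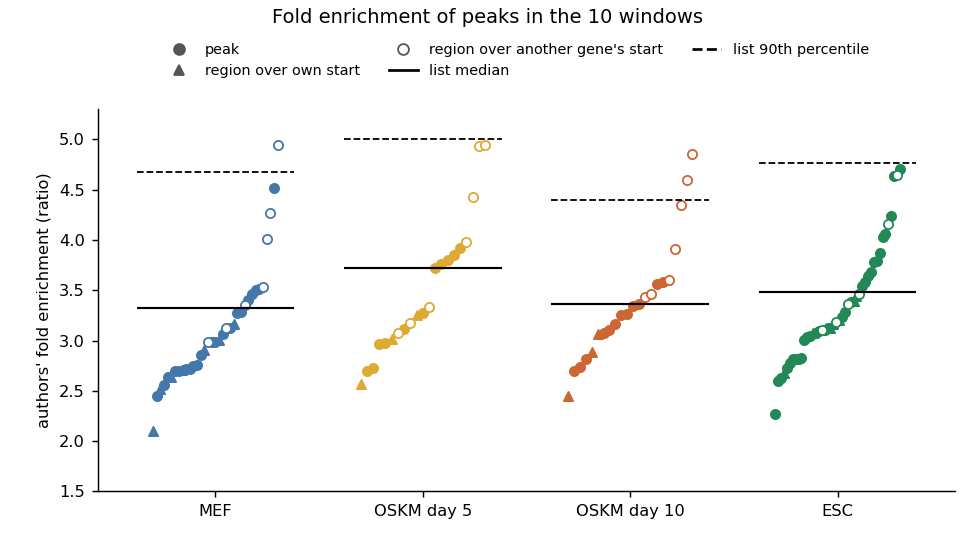
Fold enrichment (y axis, the authors' ratio) of each peak in the 10 windows, ordered within each list, with the median (solid line) and the 90th percentile (dashed line) of the whole list. Triangles are regions over a start site of the gene itself and open circles are regions over the start site of another gene; triangles lie below the median line in every list.

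Over the windows as a whole, 10 of the 35 MEF peaks, 8 of 21 on day 5, 10 of 22 on day 10 and 14 of 44 in ESCs had a fold above the median of their list. Peaks above the 90th percentile numbered 1 in MEFs and 2 on day 10 and 0 in each of the others. The highest folds in MEFs (4.95), on day 5 (4.94) and on day 10 (4.86) belonged to peaks at the starts of the neighbouring genes Fdft1, Acbd3 and Cat. In ESCs the highest belonged to the distal Gsc region.

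Peaks from different lists lying within 400 bp were then merged, and each region was classed by its lists. Of the 67 regions, 28 (41.8%) were ESC-specific (a peak in ESCs and none in MEFs), beside 28.4% of all regions. There were 19 MEF-specific regions (28.4%, beside 36.4%), 16 common regions with a peak in both (23.9%, beside 19.1%) and 4 transient regions (5.97%, beside 16.1%). These 10 loci thus held a larger share of ESC-specific and a smaller share of MEF-specific and transient regions than the genome. At equal list length, 23 of 43 regions were ESC-specific (53.5%, beside 28.4%), 7 MEF-specific (16.3%, beside 28.4%), 8 common (18.6%, beside 17.3%) and 5 transient (11.6%, beside 25.9%). With flanks of 10 kb, there were 6 MEF-specific, 10 ESC-specific, 11 common and 3 transient regions, so ESC-specific regions were no longer the most frequent. No shares around all genes at this flank stand beside these counts. ESC-specific regions were present at 9 of the 10 genes, all but Mixl1, and 75.8% of all genes had at least 1. MEF-specific regions were present at 9, all but Sox17 (75.1% of all genes), and transient regions at 3, namely Gata4, Foxa2 and Elf5 (47.8% of all genes). The neighbours accounted for much of the common class. In all, 9 regions lay over a start site of another gene, and without them there were 17 MEF-specific, 28 ESC-specific, 9 common and 4 transient regions.

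**Figure D4:**
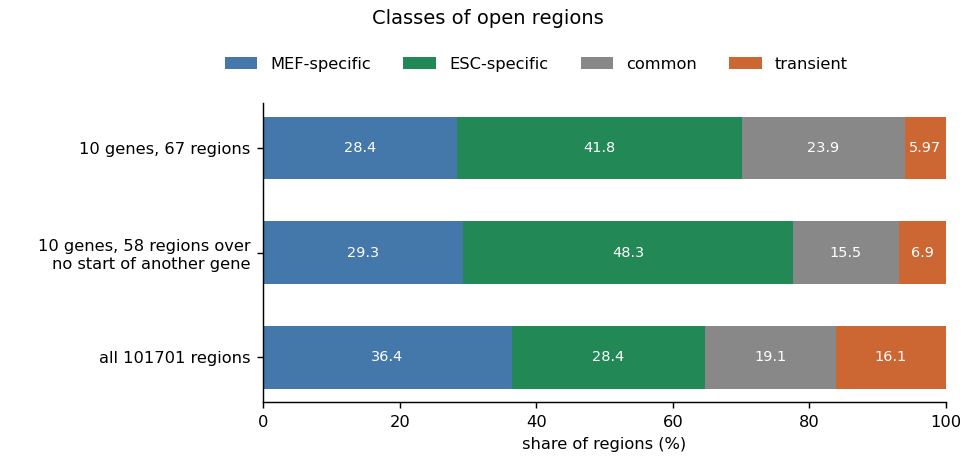
Share of regions in each class (x axis, percent), for the 67 regions at the 10 genes, for the 58 that lie over no start site of another gene, and for all regions of the genome. The ESC-specific part is 41.8%, 48.3% and 28.4%. The 9 regions left out of the 58 were 2 MEF-specific and 7 common ones, and no such regions were left out of the genome set, so 48.3% and 28.4% are not like for like.

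The classes were followed to day 5 and day 10. Among the 28 ESC-specific regions, 5 had a peak on at least 1 of these days, beside 15.1% of all ESC-specific regions. They lay at Sox17 (day 5 only), Gsc (1 on both days and 1 on day 10 only) and Tfap2c (2 on both days), and 23 of the 28 were open on neither day. Among the 19 MEF-specific regions, 2 kept a peak on both days, beside 18.9% with a peak on either day over all regions. These were the intronic Golga4 region near Eomes and a Fdft1 start near Gata4. Among the 16 common regions, 13 had a peak on day 5 or day 10, beside 83.6%. The 3 that had none were the Gata4 start-site region, the intronic Gata4 region and the Mixl1 start site, all within the lineage genes themselves. Of the 11 regions open in all 4 lists, 7 lay over a start site of another gene. The others were the region over the Eomes start sites, the region upstream of Foxa2 and both regions 3′ of Cdx2. These regions and counts of 5 or fewer were named after their values were seen.

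By position, 9 of the 67 regions covered a start site of the gene itself and 7 only a start site of another gene, 7 lay in exons, 17 in introns and 27 between genes. Of the 28 ESC-specific regions, 15 were intergenic, 7 intronic, 4 exonic and 2 at a start site. Of the 67, 52 were over 5 kb from a start site of their gene.

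In the central 200 bases, the 67 regions had a median GC content of 51.5%, beside 46.5% over all regions, and common regions had 62% beside 58.5%. KLF letters were present in 11 of the 67 windows (16.4%, beside 7.29% of all regions) and TFAP2 letters in 8 (11.9%, beside 7.19%), both being GC-rich. GATA letters were present in 6 (8.96%, beside 16.8%), SOX letters in 7 (10.4%, beside 13.7%) and TEAD letters in 9 (13.4%, beside 11.1%). AP-1 letters, of the family that marks fibroblast enhancers, were present in 6 windows (8.96%, beside 11.4%), and in 4 of the 19 MEF-specific ones (21.1%, beside 23.0% of all MEF-specific regions). The octamer was found in 0 of the 67 windows, beside 2.19% of all regions. Among the ESC-specific regions, TEAD letters were present in 6 of 28 (21.4%, beside 12.4%), and among the 4 transient regions SOX letters were present in 2 (those at Foxa2 and Elf5 printed above), beside 23.1% of all transient regions. A match to letters is not a bound site.

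The same counts were made for 28 other lineage factors. They had a covered start site in 13 genes in MEFs, 5 on day 5, 8 on day 10 and 12 in ESCs. Of all protein-coding genes, 60.0%, 52.1%, 56.0% and 55.8% had one. Both days had the fewest among the 28, but the lists of both days were also the shortest. The 28 were not counted at equal list length, at which the MEF count of the 10 genes was 2. The windows of the 28 held 114, 68, 75 and 124 peaks. By class, they held 49 MEF-specific, 59 ESC-specific, 65 common and 16 transient regions. Common regions were thus the most frequent there, whereas ESC-specific ones were at the 10 genes. A list of 10 pluripotency factors had 30 peaks in MEFs, 20 on day 5, 30 on day 10 and 85 in ESCs. It had covered starts in 6, 4, 5 and 9 genes, also not counted at equal list length. A list of 10 fibroblast factors had 66, 33, 39 and 38 peaks and covered starts in 9, 6, 6 and 5 genes. Of the 28, 12 had no covered start site in any list, as Cdx2 had none, a count with no share of all genes beside it. Others shared a rarer start-site pattern with one of the 10 genes. Gata5 and Ascl2 were open in MEFs and ESCs and on neither day, as Mixl1 was. Hhex and Tbx20 followed Tfap2c, and Lhx1 and Otx2 were open in MEFs alone as Gsc was. Ets2 and Tead4 were open in all 4 lists as Gata6 and Eomes were, a pattern that 46.8% of all protein-coding genes had.

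**Figure D5:**
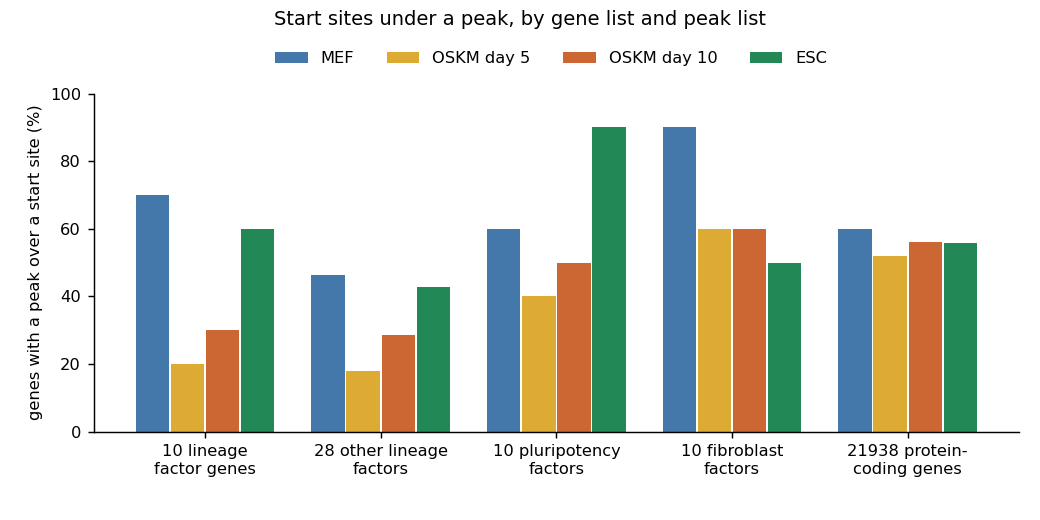
Percentage of genes with a peak over a start site (y axis) in each list (colour), for the 10 lineage factor genes, 28 other lineage factors, 10 pluripotency factors, 10 fibroblast factors and all 21938 protein-coding genes. Among the 10 genes the bars stand for 7, 2, 3 and 6 genes, and those for all genes lie between 52.1% and 60.0%.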

How the data were processed

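ATAC-seq peaks of 8 mouse libraries (MEFs, OSKM on day 5 and day 10, ESCs) were used. Per the labels, the authors mapped reads to mm10 with bowtie2 in very sensitive mode (the submitters' processing notes name version 2.2.0), removed reads of low mapping quality and mitochondrial reads, and kept uniquely mapped reads. The labels and methods give different mapping-quality thresholds. The peak caller and its settings are not given in the sources used here. The authors deposited 1 list per group in broad-peak layout without a header, with a score, a fold enrichment (ratio) and a p-value and q-value, each as −log10, for each peak. The deposited score was the whole part of 10 times the −log10 q-value. The lists are named as intersections and carry replicate 1 peak names, so the fold enrichment may belong to a wider peak than the interval listed. How they were combined is stated nowhere. A longer list may come from deeper libraries, since the depth is unknown. Of all columns, 0 belonged to other series.

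Peaks were assigned to genes of GENCODE mouse release 21 (132629 distinct start sites of 141730 transcripts) and to GRCm38 sequence with Python 3.11.15, numpy 2.4.6 and pandas 2.3.3. Overlap counting, merging and classing were tested on simulated peaks of known position. Groups came from the sample titles. With 1 list per group, no test was made, and counts were set beside the same counts over all protein-coding genes or regions. Regions merged peaks of the 4 lists within 400 bp, the distance used in the study's methods. Exact positions were named for regions over a start site of the gene, and for the 5 regions of each class with the highest fold among those over no start site of another gene. Other regions were named where a count of 5 or fewer or a description turned on them. At most 8 other lineage factors were named, those with the start-site pattern of 1 of the 10 genes. The genes, lists and rules were chosen with earlier results of these data known. Alternatives covered the flank, the merging distance, the list length, the definition of a start site and the removal of regions at other genes' starts.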

Additional observations from a re-analysis of the deposited data

How the results depend on the processing

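Counts are given in the order MEFs, day 5, day 10, ESCs for peaks and start sites, and MEF-specific, ESC-specific, common, transient for regions. They cover the 10 genes only, with no share of all genes or regions beside them. Peaks in the windows numbered 17, 10, 11 and 21 with a flank of 10 kb, 65, 40, 43 and 76 with 100 kb, and 13, 8, 9 and 19 in the higher-scoring 50% of each list. ESCs had the most peaks in each of these settings. At equal list length, MEFs held 15, fewer than at either day. Without peaks over a start site of another gene, 13 remained on day 5 and 14 on day 10. Genes with a covered start site numbered 3, 0, 2 and 3 for the outermost start and 2, 0, 0 and 4 in the higher-scoring 50%, and 2 in MEFs at equal list length. Regions numbered 6, 10, 11 and 3 with 10 kb, where common and not ESC-specific regions were the most frequent, 37, 48 and 28 (common) with 100 kb, and 9, 15 and 4 in the higher-scoring 50%. At equal list length, 7 were MEF-specific and 8 common, and without other genes' start sites 9 were common. The other 39 of 72 values lay within 1.5 times the reported count, among them all those for midpoints, both other merging distances, start sites within 1 kb and protein-coding transcripts only, the last chosen after seeing the data. No paired analysis was possible because both libraries of a group were deposited as 1 list, and leaving out a replicate was not run for the same reason. Counts of 10 genes are small, and the unknown depth limits every absence of a peak, above all on day 5 and day 10.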

Other observations

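Among the other lineage factors, the 6 ectoderm genes (Sox1, Sox3, Pax6, Otx2, Zic1 and Neurog2) held 13 peaks in MEFs, 10 on day 5, 15 on day 10 and 20 in ESCs, and had a covered start site in 3, 1, 3 and 4 genes. The 7 mesoderm genes held 31, 14, 18 and 37 peaks, with covered starts in 2, 0, 1 and 1. The 7 further endoderm genes held 28, 11, 8 and 25 peaks, with covered starts in 3, 1, 1 and 2, and 0 transient regions. The 8 further trophoblast genes held 42, 33, 34 and 42 peaks, with covered starts in 5, 3, 3 and 5 and transient regions at 6 of 8 genes. Over all protein-coding genes, 47.8% had a transient region and 52.1% (day 5) to 60.0% (MEFs) a covered start site. None of these differences was tested.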
